A study of Mus musculus with 4 samples.

Results

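Cycling cells with subventricular zone features were taken from the single-cell RNA library of the medial ganglionic eminence (MGE), where 219 of the 4852 barcodes that passed quality filters fell inside a gate on 6 genes. Kept barcodes had over 1500 but under 4500 genes, less than 5% of UMIs from mitochondrial genes and less than 1% from Hbb genes. A UMI, or unique molecular identifier, marks 1 captured RNA molecule. The cells were selected on ln(1 + UMIs per 10000) by Dcx above 1.5, Mki67 and Ccnd2 above 0.5, Mapt and Rbfox3 below 0.5 and Nes of at most 1.5. The gated cells made up 4.51% of the kept MGE barcodes (exact 95% interval 3.95 to 5.14). They were set beside 551 MGE cells with Nes above 1.5 (high-Nes cells). Also compared were 1813 MGE cells with Dcx above 1.5 but Mki67 below 0.5 (Mki67-negative high-Dcx cells). The last group was 402 cells of the lateral ganglionic eminence (LGE) that passed the same gate.

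The study profiled wild-type C57BL/6 mouse forebrain at E12.5 (embryonic day) with 10x Genomics droplets, in 1 library each from cortex (CTX), LGE, MGE and caudal ganglionic eminence (CGE), with 16544 kept barcodes in all. None of the groups carried a transgene or a treatment, and the tissue of each library was pooled over embryos. The labels name a sort for live cells where the methods call wild-type cells unsorted, which was not settled, and a sort could bear on every share given here. Position in the tissue was not measured, so the name of the zone rests on the genes alone. With 1 library per region there were no replicates, no test was made, and the intervals below cover counting error only.

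The ganglionic eminences are the embryonic source of the inhibitory neurons of the forebrain. In each eminence, radial glia divide along the ventricle in the ventricular zone, their intermediate progenitors divide away from it in the subventricular zone, and postmitotic neurons leave through the mantle. The MGE is patterned by the homeobox factor Nkx2-1, which acts upstream of Lhx6 and Lhx8, and it gives rise to parvalbumin and somatostatin interneurons of the cortex as well as to pallidal and cholinergic neurons.

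Of the 2103 kept MGE cells with Mki67 above 0.5, 10.4% passed the gate. Of the kept barcodes 2272 passed on Dcx and 2241 of these also on Nes, and the step on Mki67 left 428. The remaining steps left 300 cells after Ccnd2, 223 after Mapt and 219 after Rbfox3. In LGE 402 of 4810 kept barcodes passed (8.36%, 7.59 to 9.18), in CGE 72 of 3248 (2.22%, 1.74 to 2.78) and in CTX 15 of 3634 (0.413%). Gated cells were therefore a larger share of the kept barcodes in LGE than in MGE, and this also held among cells with Mki67, at 18.6% in LGE. For CGE the order depended on the measure, since its share among cells with Mki67 was 11.9%, not below that of MGE. In CTX that share was 0.875%. The upper limit on genes weighed on the number, since 253 MGE barcodes passed without it.

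The genes of the gate chose the cells, so their values are a description. Dcx, which encodes a microtubule-associated protein of migrating neurons, had a median of 1.78 among the gated cells, Mki67, a nuclear protein of dividing cells, 1.82, and the D-type cyclin Ccnd2 1.83. At the edges, the lowest Dcx inside was 1.50018 against 1.49878 just outside, the lowest Mki67 was 0.550 against 0 outside, and the lowest Ccnd2 was 0.553 against 0.497. The intermediate filament gene Nes reached 1.49 inside and began at 1.50 outside, and 122 of the 219 cells held no Nes UMI. Rbfox3 was at 0 in every gated cell, with 0.610 the nearest value outside. Mapt was at 0 in 218 of them, the other cell had 0.499, and the nearest cell outside had 0.503.

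The gated cells held 2079196 UMIs in total, with a median of 9335 UMIs per cell (2670 to 15781) and 3352 genes. The high-Nes cells were of like depth, at a median of 9751 UMIs, and the Mki67-negative high-Dcx cells were shallower, at 6167. Predicted doublets made up 4.11% of the gated cells, 2.00% of the high-Nes cells and 2.12% of the MGE library, and removing them left 162 of the 164 named values past 2-fold. Of the 219 barcodes, 3 also occurred in another library. Markers of other cell types were near 0 in the gated cells. All 6 glutamatergic markers, Neurod6 and Eomes among them, were at 0, and 4 of 6 genes each were at 0 for endothelial cells, for pericytes and for microglia. The summed level was 0.962 counts-per-million (CPM) for the endothelial list, against 56.3 CPM in the high-Nes cells, and 1.44 CPM for the microglial list, against 60.3 CPM. Hemoglobin and other red blood cell genes summed to 56.8 CPM in the gated cells and to between 62.0 and 84.6 CPM in the other MGE classes.

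Nkx2-1, Lmo1 and Mbip belong to the label of MGE identity given to these cells. Their values therefore describe the label and do not test it. Nkx2-1 (chr12:56531958-56536908, minus strand, GRCm38) had 0 to 29 UMIs per gated cell with a median of 8, and 213 of the 219 cells had at least 1. After every cell was thinned to 3000 UMIs, which 217 gated cells reached, 85.7% had a UMI (80.3 to 90.1), against 68.9% of high-Nes cells and 58.4% of Mki67-negative high-Dcx cells. Only 0.249% of the gated LGE cells did, at a similar median depth of 8944 UMIs. Lmo1, a LIM-only cofactor, was found in 50.2% of thinned gated cells (71.2% at own depth), against 73.3% and 16.4% in the other MGE classes and 13.4% in gated LGE cells, while gated CGE cells had a share with an overlapping interval, 42.3% (30.6 to 54.6, against 43.4 to 57.1). Mbip, which encodes a MAP3K12-binding protein, was found in 32.3% (65.8% at own depth), against 6.22% in gated LGE cells.

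Against the high-Nes cells, the gated cells held less radial glial RNA, with the list at 3141 CPM against 9526 CPM, and more RNA of the GABAergic list, at 7356 CPM against 2436 CPM, and of the maturation list, at 11756 CPM against 4767 CPM. Levels below are sums over the cells of a class in CPM, and a gene counted as called when its log2 ratio, with 5 CPM added to both sides, was past 1 (2-fold) among the genes at 50 CPM or more in either class. By this rule 240 of 4114 genes were higher in the gated cells (5.83%) and 272 were lower (6.61%), around a median log2 ratio of -0.01 over all genes. Since Nes and Dcx set the classes apart, these counts describe the gate and support nothing. The same ratio was taken within LGE and CGE. Of the 240 higher genes 137 were past 2-fold in LGE, 146 in CGE and 110 in both, of the 272 lower genes 188, 189 and 159, and none was past 2-fold the opposite way in either. Over all 4114 genes the shares past 2-fold in both were 2.89% higher and 4.33% lower, and as the same Nes and Dcx limits set the LGE and CGE classes, a likeness follows from the gate.

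**Figure D1:**
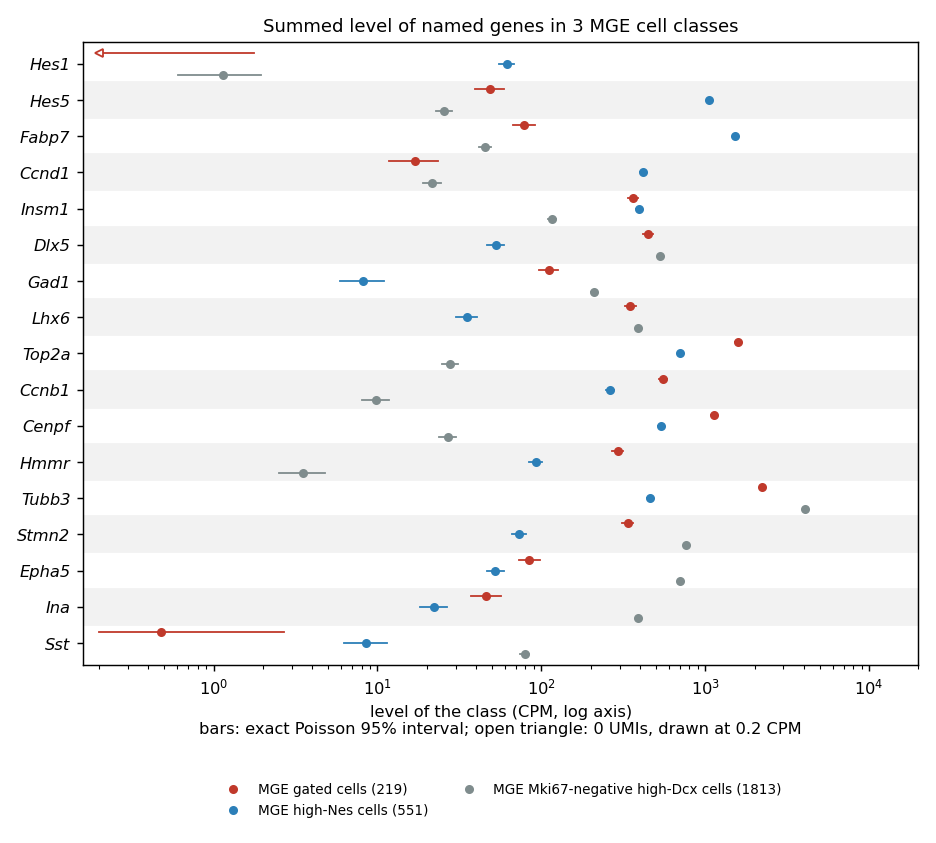
Summed level of 17 named genes in 3 MGE cell classes, in CPM on a log axis with exact Poisson 95% intervals as bars. Radial glial genes at the top were low in gated cells, at 48.6 CPM for Hes5 against 1051 CPM in high-Nes cells. Mitotic genes such as Top2a were highest in gated cells at 1581 CPM, and Epha5 and Ina were highest in Mki67-negative high-Dcx cells.

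Of 27 radial glial genes at the level cutoff, 23 were lower in the gated cells and none was higher, with a median log2 ratio of -2.59. Fabp7, a fatty acid-binding protein of radial glia, had 78.9 CPM in the gated cells and 1520 CPM in the high-Nes cells, 19.3-fold lower (16.5 to 22.6). The endothelin receptor gene Ednrb had 5.29 CPM against 232 CPM (43.9-fold lower, 24.4 to 88.1), and the matrix gene Sparc had 3.85 CPM against 264 CPM (68.5-fold lower, 34.7 to 159). Endothelial cells express both of these genes too, and with endothelial, pericyte and microglial cells removed the log2 ratio was -4.54 for Ednrb and -4.76 for Sparc, against -4.53 and -4.92 with them. Glutamate transporter Slc1a3 was down to 1 UMI in all gated cells, 0.481 CPM against 67.2 CPM. Vim, an intermediate filament gene, had the smallest ratio of the 23, at 827 CPM against 1771 CPM (2.14-fold lower). Within LGE and CGE the log2 ratio of Fabp7 was -4.04 and -5.35, against -4.18 in MGE.

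Notch targets and pathway genes were lower, and some neurogenic factors were higher. Hes5, a Notch effector that holds cells in the progenitor state, had 48.6 CPM against 1051 CPM (21.6-fold lower, 17.8 to 26.6). The related Hes1 had no UMI in any gated cell and 323 UMIs, or 61.5 CPM, in the high-Nes cells, which with a floor of 3 UMIs over the class made it at least 42.6-fold lower. The receptor gene Notch1 (126 CPM against 359 CPM, 2.85-fold lower) and its glycosyltransferase Lfng (3.37 CPM against 54.4 CPM) were lower as well. The zinc-finger factor Insm1, by contrast, had a ratio of 0.918 (0.844 to 0.998). Myt1, a neurogenic zinc-finger factor, was 4.84-fold higher, the corepressor Cbfa2t3 5.85-fold and Sox11, a SoxC factor of neuronal differentiation, 3.60-fold, at 9339 CPM against 2592 CPM. In all, 4 of 17 genes of the Notch and proneural list were higher and 3 were lower.

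GABAergic genes were higher in the gated cells. Of 19 genes of the lineage list, 14 were higher than in the high-Nes cells and none was lower, with a median log2 ratio of 2.45. Gad1, which encodes an enzyme of GABA synthesis, had 111 CPM against 8.18 CPM, 13.6-fold higher (9.77 to 19.3). The homeobox gene Dlx5 had 447 CPM against 52.7 CPM, 8.48-fold higher (7.41 to 9.74). Lhx6, the LIM-homeobox factor of MGE interneurons, was 9.93-fold higher (8.44 to 11.7) and Lhx8 8.07-fold (6.74 to 9.70). Within LGE and CGE the log2 ratio of Dlx5 was 1.91 and 3.29. For Lhx6, with 2 UMIs in the gated LGE cells, LGE could not show the ratio either way. Adamts5, a matrix protease gene, was 13.0-fold higher in MGE and had 1 UMI each in the gated cells of LGE and CGE, too few for a comparison there.

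Neuronal genes followed, with 15 of 19 genes of the maturation list higher and 1 lower. Tubb3, the neuronal beta-tubulin, had 2213 CPM against 459 CPM, 4.82-fold higher. Stmn2, which regulates growth cone microtubules, was 4.61-fold higher, Tagln3 4.67-fold and the synaptic adhesion gene Nrxn3 7.85-fold. The 1 lower gene was the imprinted noncoding RNA Meg3. In the guidance list 5 of 12 genes were higher, among them the semaphorin coreceptor Plxna4 (20.8-fold) and the Slit receptor Robo2 (4.80-fold), and the ephrin receptor gene Ephb1 was lower, at 9.14 CPM against 133 CPM.

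Patterning genes differed unevenly between the classes. Nkx2-1 was at 975 CPM in the gated cells and 552 CPM in the high-Nes cells, a ratio of 1.77 (1.67 to 1.87), and Mbip had a ratio of 1.42 (1.24 to 1.61). Lmo1 went the other way, at 483 CPM against 720 CPM, 1.49-fold lower. None of these 3 was past 2-fold. Meis2, a TALE homeobox gene of LGE and CGE, had 99.1 CPM against 571 CPM in the high-Nes cells, 5.76-fold lower, while its log2 ratio was 0.97 in LGE and 0.27 in CGE.

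Genes of S phase included some lower in the gated cells. Since 406 of the 551 high-Nes cells had Mki67 above 0.5, the comparison was also made with these alone, where 217 of 4109 genes were higher (5.28%) and 259 were lower (6.30%). Of 36 S phase genes 8 were lower and none was higher, with a median log2 ratio of -0.66. Ung, a uracil-DNA glycosylase, had 16.4 CPM in the gated cells and 110 CPM in the high-Nes cells with Mki67, and Dtl, a replication-licensing ubiquitin ligase adaptor, had 33.2 CPM and 132 CPM. Of 49 genes of G2 and mitosis 3 were higher and none was lower, with a median log2 ratio of 0.57, a share near that over all genes, while over all high-Nes cells 17 of 49 were higher. Hmmr, which encodes a spindle-associated protein, was 2.50-fold higher than in the high-Nes cells with Mki67 (2.21 to 2.82) and the mitotic ubiquitin-conjugating enzyme Ube2c 2.25-fold (2.14 to 2.37).

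Cell by cell, the gated cells had more summed mitotic RNA and less summed S phase RNA than the high-Nes cells with Mki67 at the median. The summed G2 and mitosis list had a median of 17776 CPM per gated cell (quartiles 7988 and 30104, range 1252 to 46003) against 12340 CPM in the high-Nes cells with Mki67. The summed S phase list had a median of 3756 CPM (quartiles 2302 and 6850) against 6843 CPM. Both lists spread widely among the gated cells, and 47 of them held no UMI of Top2a. The mitotic list exceeded the S phase list in 189 of 219 gated cells (86.3%, 81.0 to 90.6), in 260 of 406 high-Nes cells with Mki67 (64.0%, 59.2 to 68.7) and in 329 of 402 gated LGE cells (81.8%, 77.7 to 85.5). It did so too in 1344 of 1813 Mki67-negative high-Dcx cells (74.1%, 72.0 to 76.1), whose summed lists were both low, so this share alone does not give a phase. The gate itself asks for Mki67, which is highest in G2 and mitosis, so the gate bears on these levels.

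**Figure D2:**
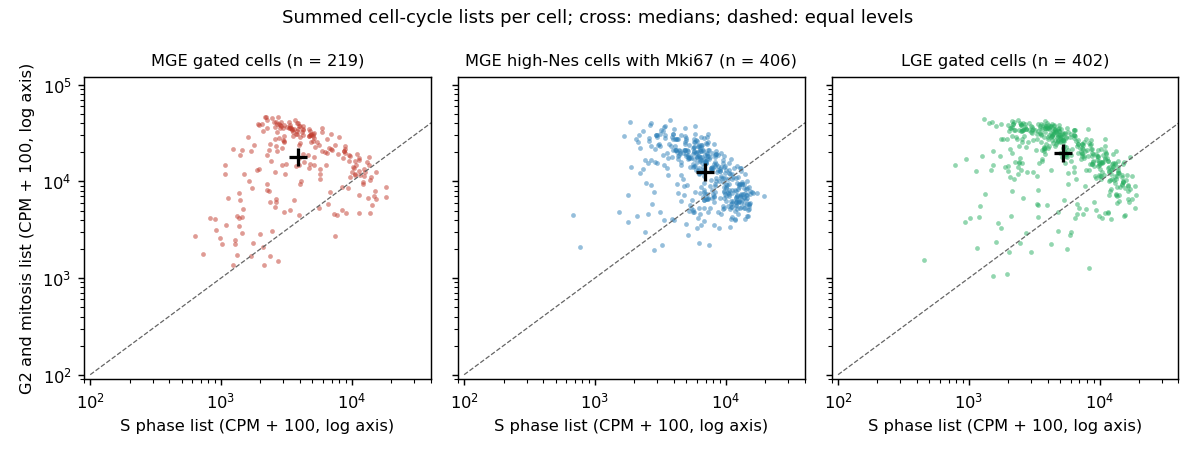
Each point is 1 cell, with its summed level of the S phase list on the horizontal axis and of the G2 and mitosis list on the vertical axis, in CPM plus 100 on log axes. The median cross of the 219 MGE gated cells lies further up and to the left than that of the 406 MGE high-Nes cells with Mki67, at 17776 and 3756 CPM against 12340 and 6843 CPM.

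Cyclins and cell-cycle inhibitors differed between the classes as well. The cyclin gene Ccnd1 had 16.8 CPM in the gated cells and 415 CPM in the high-Nes cells, 24.7-fold lower (17.7 to 35.5). Its kinase partner Cdk6 was 6.61-fold lower, and Btg2, an antiproliferative gene of neurogenic progenitors, 3.77-fold lower, at 61.1 CPM against 230 CPM. The CDK inhibitor gene Cdkn1c was 3.06-fold higher (2.64 to 3.55), at 196 CPM against 64.0 CPM. Ccnd1 overlaps another gene on the opposite strand, and since the strand setting of the counting was not given, its value is uncertain to that extent.

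Against the Mki67-negative high-Dcx cells, the gated cells held more cell-cycle RNA, with the mitotic list at 21100 CPM against 2049 CPM and the S phase list at 5303 CPM against 1515 CPM. The maturation list was lower, at 11756 CPM against 21392 CPM. Here 280 of 4069 genes were higher (6.88%) and 154 were lower (3.78%), around a median log2 ratio of -0.02, and the gate on Mki67 and Ccnd2 chose this contrast. In LGE and CGE, 259 of the 280 higher genes and 125 of the 154 lower genes were past 2-fold in both libraries, against 6.93% and 4.89% of all 4069 genes, with the same limits on Mki67 and Ccnd2 setting those classes.

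Of 49 genes of G2 and mitosis 47 were higher, with a median log2 ratio of 3.97, and of 29 S phase genes 25 were, with a median of 1.64. Top2a, the topoisomerase of chromosome condensation, had 1581 CPM against 27.8 CPM, 56.8-fold higher (50.6 to 64.0). The mitotic cyclin gene Ccnb1 was 56.5-fold higher (46.5 to 69.3), at 551 CPM against 9.74 CPM, and Hmmr 83.2-fold (60.4 to 118), at 292 CPM against 3.51 CPM. Cenpf, a kinetochore gene, was 42.4-fold higher, at 1134 CPM against 26.8 CPM. Among replication genes the ratios were smaller, at 12.0-fold for the ribonucleotide reductase subunit Rrm2 and 12.6-fold for Atad2.

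The promoters of these 4 mitotic genes are shown because CCAAT boxes, bound by the factor NF-Y, are a known feature of genes of this phase. Of 3 further mitotic promoters read, Aspm held 3 matches to CCAAT, Prc1 held 1 and Nusap1 none. Each line gives the 150 bases before the start of transcription from RefSeq on GRCm38.p6, written 5′ to 3′ on the strand of the gene, with CCAAT or its reverse complement ATTGG, and TTTGAA or TTCGAA with the reverse complement TTCAAA, in capitals.
Top2a, chr11:99024190-99024339, minus strand: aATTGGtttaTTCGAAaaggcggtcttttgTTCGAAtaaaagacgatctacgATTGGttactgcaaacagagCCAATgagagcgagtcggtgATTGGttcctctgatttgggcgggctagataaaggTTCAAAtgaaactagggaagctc
Hmmr, chr11:40733438-40733587, minus strand: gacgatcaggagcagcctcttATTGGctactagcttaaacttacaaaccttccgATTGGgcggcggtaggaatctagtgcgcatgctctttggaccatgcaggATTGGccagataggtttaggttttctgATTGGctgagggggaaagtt
Ccnb1, chr13:100786487-100786636, minus strand: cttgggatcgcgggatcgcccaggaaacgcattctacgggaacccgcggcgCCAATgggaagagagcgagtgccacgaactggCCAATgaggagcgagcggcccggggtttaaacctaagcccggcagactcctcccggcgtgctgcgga
Cenpf, chr1:189688087-189688236, minus strand: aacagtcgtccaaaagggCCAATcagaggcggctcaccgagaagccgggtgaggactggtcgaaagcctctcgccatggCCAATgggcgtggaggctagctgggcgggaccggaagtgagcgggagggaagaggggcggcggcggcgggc

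Over the 250 bases before the start, CCAAT on either strand occurred 6 times in Top2a, 5 times in Hmmr and 2 times each in Ccnb1 and Cenpf. TTTGAA or TTCGAA, the core letters of the cell-cycle homology region, occurred 4 times in Top2a and in none of the other 3. Of 45 genes of the G2 and mitosis list that matched the promoter table, 75.6% held CCAAT in this window and 42.2% held TTTGAA or TTCGAA, against 34.5% and 17.4% of the first windows of all 27025 genes. Among 30 S phase genes the shares were 70.0% and 16.7%, among 24 radial glial genes 62.5% and 8.33%, and among 19 GABAergic genes 42.1% and 15.8%. CCAAT was thus not particular to the mitotic list, while the maturation list fell below the share of all genes. Of its 20 genes, 30% held CCAAT and 5% held TTTGAA or TTCGAA. These motifs were picked after the mitotic genes had been seen, and a match is a description of the letters only.

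Some neurogenic progenitor genes were also higher in the gated cells than in the Mki67-negative high-Dcx cells. Insm1 was 3.13-fold higher and the Notch ligand gene Dll1 2.41-fold. Of 15 genes in the Notch and proneural list, 4 were higher and none was lower, with a median log2 ratio of 0.19. Of 11 radial glial genes, 3 were higher, which were the serine synthesis gene Phgdh (4.79-fold), the receptor phosphatase gene Ptprz1 (2.32-fold) and the Hippo pathway factor Tead2 (2.44-fold). Lmo1 was 4.59-fold higher, at 483 CPM against 105 CPM, while Nkx2-1 had a ratio of 1.67 (1.59 to 1.75) and Mbip of 1.60. Lhx6 was close in both classes, at 350 CPM against 389 CPM, a ratio of 0.899 (0.830 to 0.973).

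Of 24 maturation genes 11 were lower, 13 did not pass and none was higher, and of 23 GABAergic genes 5 were lower and 18 did not pass. Epha5, an ephrin receptor gene, had 84.6 CPM against 702 CPM, 8.29-fold lower (7.14 to 9.68), and the neurofilament gene Ina 46.2 CPM against 389 CPM, 8.42-fold lower. Nxph1, which encodes a neurexin ligand of interneurons, was 11.8-fold lower, at 15.9 CPM against 187 CPM, and the neuropeptide gene Npy 3.20-fold, at 149 CPM against 478 CPM. Somatostatin, Sst, had 1 UMI in the gated cells and 900 UMIs in the Mki67-negative high-Dcx cells, a ratio of 0.00609 (0.000154 to 0.0340). Ebf1, a factor of striatal neurons, had 3 UMIs, a ratio of 0.0127 (0.00261 to 0.0371). Tubb3 differed by less than the cutoff, 1.84-fold lower.

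The counts, those of lower genes most, depended on which Mki67-negative cells were used. The comparison was also made with the 383 that, like the gated cells, had Ccnd2 above 0.5 and Mapt and Rbfox3 below 0.5. There 30 of 3917 genes were lower (0.766%) and 223 were higher (5.69%), with a median log2 ratio of -0.05. Lower maturation genes numbered 2 of 21 in place of 11 of 24, and GABAergic genes 2 of 21 in place of 5 of 23. Sst had no UMI in these cells and Ebf1 had 1, too few to read a direction, and the glutamate receptor gene Gria2 had 41.6 CPM, a ratio of 1.32 (1.00 to 1.74). Epha5 was still 3.57-fold lower, Nxph1 4.18-fold and Npy 2.98-fold. Higher S phase genes numbered 14 of 29 in place of 25 of 29, radial glial genes 1 of 11 in place of 3 of 11, and Notch and proneural genes 2 of 16 in place of 4 of 15. In the mitotic list 47 of 49 genes were higher here too, with Top2a at 33.8-fold (28.1 to 41.0). Nkx2-1 was level with these cells, at a ratio of 1.01 (0.949 to 1.07).

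**Figure D3:**
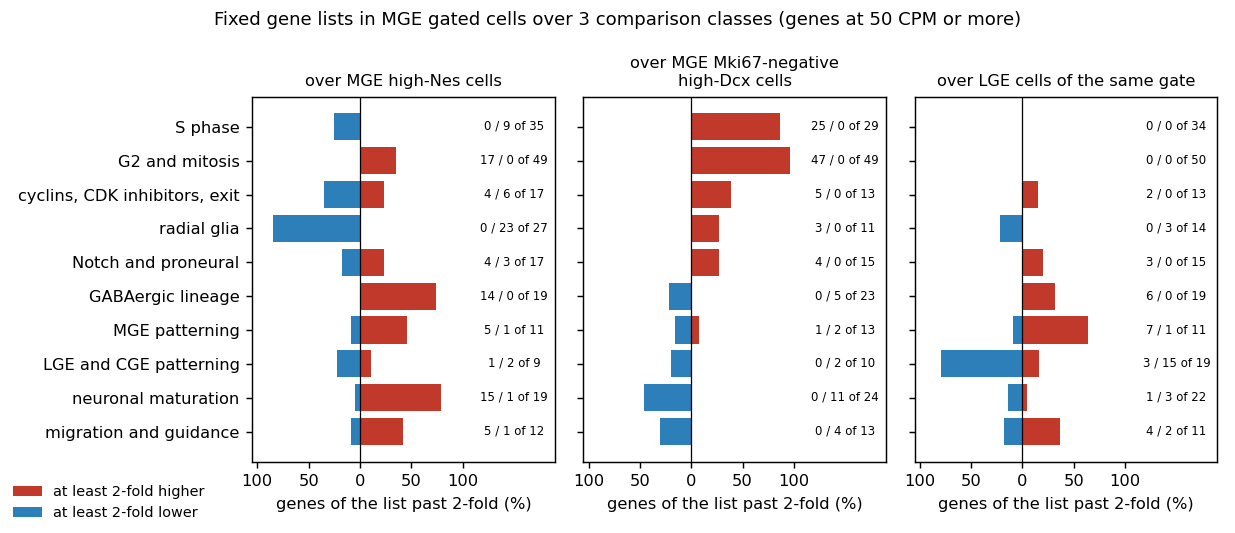
Share of the genes of 10 lists that were at least 2-fold higher (red, to the right) or lower (blue, to the left) in MGE gated cells than in each of 3 comparison classes, among genes at 50 CPM or more, with the counts at the right of each bar. The radial glial list was lower against high-Nes cells (23 of 27), the mitotic list higher against Mki67-negative high-Dcx cells (47 of 49), and neither cell-cycle list held a gene past 2-fold against gated LGE cells.

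Few genes were at least 2-fold higher, or at least 2-fold lower, in the gated cells than in both other MGE classes. Of 3665 genes tested in both MGE comparisons, 43 (1.17%) were at least 2-fold higher than in both other classes, 19 of them in the cell-cycle lists. These lists do not hold every cell-cycle gene, and Aspm, Plk1, Kif4 and Kif20a, outside them, were also among the 43. Of the 43, 10 were also 2-fold higher than in the high-Nes cells with Mki67. Examples chosen after their values were seen are Abracl, at 1887 CPM against 786 CPM in high-Nes cells and 697 CPM in Mki67-negative high-Dcx cells, and the CDK inhibitor gene Cdkn2d, at 148 CPM against 61.1 CPM and 68.0 CPM. Genes lower than in both classes were Dlk1, at 14.9 CPM against 123 CPM and 50.5 CPM, and Meg3, at 368 CPM against 817 CPM and 1608 CPM. Both are maternally or paternally expressed genes of the same imprinted domain. A further 18 genes lay between the classes in rising order from high-Nes to Mki67-negative cells, Stmn2 and Robo2 among them, and 15 in falling order, including the replicative helicase gene Mcm3 at 301, 105 and 25.4 CPM. These orders describe classes drawn by gates and were collected after the comparisons.

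Against the gated cells of the LGE, patterning genes differed the most, and no gene of the S phase and mitotic lists was past 2-fold. Here 65 of 3821 genes were higher in MGE (1.70%) and 80 were lower (2.09%), around a median log2 ratio of -0.01. The gate was the same in both libraries and the region did not enter it, but with 1 library each a difference between dissections or library preparations cannot be told apart from the region. None of 34 S phase genes and none of 50 genes of G2 and mitosis was past 2-fold, with median log2 ratios of -0.27 and -0.09. Top2a was at 1581, 1866 and 1616 CPM in MGE, LGE and CGE. Of 11 MGE patterning genes 7 were higher and 1 was lower, with a median of 2.75, and of 19 genes for LGE and CGE patterning 15 were lower and 3 were higher, with a median of -3.45.

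**Figure D4:**
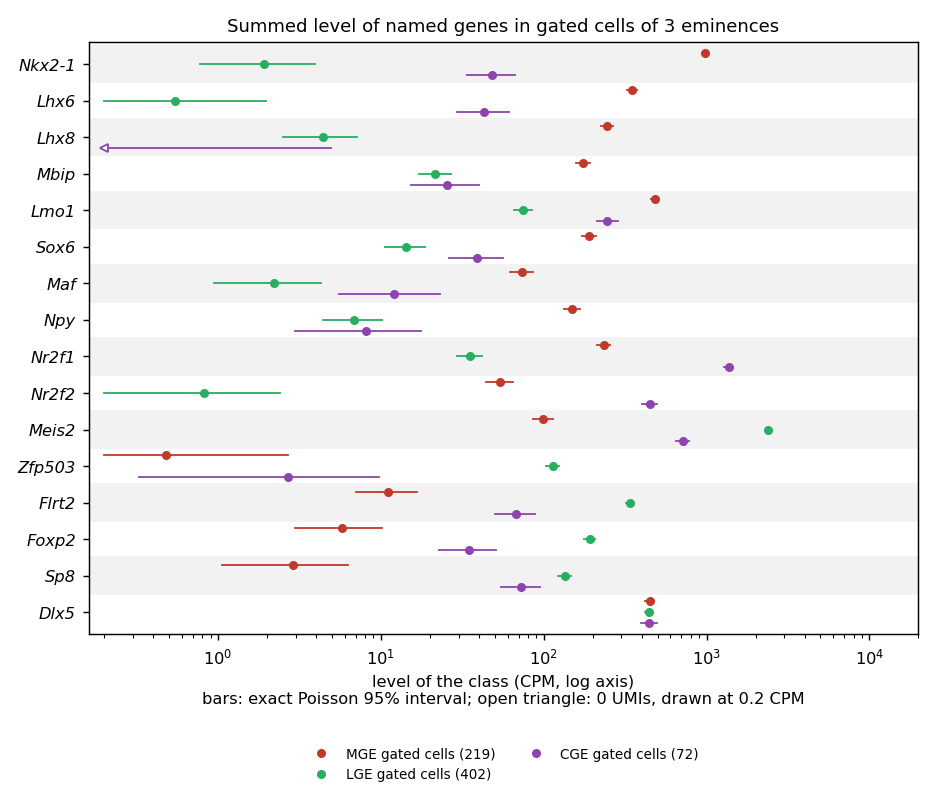
Summed level of 16 named genes in the cells that passed the same gate in the MGE, LGE and CGE libraries, in CPM on a log axis with exact Poisson 95% intervals as bars. Nkx2-1 stood at 975, 1.92 and 48.4 CPM, Meis2 at 99.1, 2388 and 712 CPM, and Dlx5 within 440 to 447 CPM in all 3.

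Nkx2-1 was at 975 CPM in the gated MGE cells against 1.92 CPM in LGE and 48.4 CPM in CGE, 509-fold higher in MGE than in LGE (247 to 1270). Lhx6 was at 350 CPM, with 2 UMIs in the gated LGE cells, a ratio of 639 (176 to 5287), and 43.0 CPM in CGE. Lhx8 was at 246 CPM and 4.38 CPM, 56.1-fold higher (34.2 to 99.0), with no UMI in the 72 gated CGE cells (up to 4.96 CPM). Factors of the MGE interneuron lineage followed the same order, with Sox6 at 190, 14.2 and 39.0 CPM in MGE, LGE and CGE and the bZIP factor gene Maf at 73.6, 2.19 and 12.1 CPM. Npy was 21.8-fold higher than in LGE, at 149 CPM against 6.84 CPM, and 8.07 CPM in CGE. Lmo1, at 483 CPM, was 6.47-fold higher than in LGE (5.65 to 7.42), and CGE lay between, at 246 CPM.

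The nuclear receptor genes Nr2f1 and Nr2f2, known from the CGE, were also higher in MGE than in LGE. Nr2f1 had 234 CPM against 35.3 CPM (6.62-fold) and 1366 CPM in CGE. Nr2f2 had 53.9 CPM, 3 UMIs in the gated LGE cells, a ratio of 65.6 (21.9 to 323), and 448 CPM in CGE. For both genes CGE was highest, MGE intermediate and LGE lowest, and their intervals did not overlap. Nr2f1 overlaps an antisense gene, so its reads are uncertain to that extent, and Ina, Nefm and Ephb1 likewise overlap other annotated genes.

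Genes of the lateral eminence were low in the gated MGE cells. Meis2 had 99.1 CPM against 2388 CPM, 24.1-fold lower (21.0 to 27.8), and 712 CPM in CGE. The forkhead gene Foxp2 was 33.2-fold lower, at 5.77 CPM against 192 CPM, the zinc-finger gene Sp8 46.6-fold, at 2.89 CPM against 135 CPM, and Flrt2, an adhesion gene of migrating neurons, 30.4-fold, at 11.1 CPM against 337 CPM. Zfp503, a zinc-finger factor of the striatum, had 1 UMI in the gated MGE cells against 113 CPM. Pax6 had 2 UMIs against 60.2 CPM in LGE and 67.2 CPM in CGE. The neurofilament gene Nefm was 11.0-fold lower than in LGE, at 36.6 CPM against 401 CPM.

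Dlx5, a factor used in all eminences, was at like levels in the gated cells of MGE, LGE and CGE, at 447, 440 and 442 CPM. Among cell-cycle regulators, Rprm, a p53-induced arrest gene, was 11.4-fold higher than in LGE, and Cdkn1c was 2.07-fold higher. Cbfa2t3 was 3.45-fold higher and Sox11 2.10-fold. The gate gene Ccnd2 was at 732, 2547 and 902 CPM in MGE, LGE and CGE, although the same lower limit had been set in all 3 libraries.

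Mbip lies on the same stretch of chromosome 12 as Nkx2-1. Of 13 annotated features within 500000 bases of Nkx2-1, Mbip (chr12:56328303-56345894, minus strand, 186064 bases away) was the only one with more than 1 UMI in the gated MGE cells, at 363 UMIs or 175 CPM. It was 8.08-fold higher than in the gated LGE cells (6.32 to 10.4), which had 21.6 CPM. Pax9, Slc25a21 and Nkx2-9, in the same window, had no UMI. Of the 219 gated cells 144 held UMIs of both Nkx2-1 and Mbip, 69 of Nkx2-1 only and none of Mbip only, while 6 held neither. The ratio of Mbip in the 213 cells with Nkx2-1 over the 6 without had a lower bound of 2.00, which rests on those 6 cells. Those 6 were shallower, at a median of 6095 UMIs against 9470, and held no UMI of Dlgap5 or Phgdh either. Of 191 list genes, 39 were past 2-fold higher in the cells with Nkx2-1 and 27 were lower. The absence of Mbip from the 6 cells was thus not particular to Mbip.

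Among the gated cells themselves, most combined several factors of the MGE lineage. Nkx2-1 and Lhx6 were found together in 195 of 219 cells, Nkx2-1 and Lmo1 in 154, and Lhx6 and Lhx8 in 89. Lhx6 had 0 to 17 UMIs per cell with a median of 3. A UMI of Lhx6 was found in 59.4% of thinned gated cells (91.3% at own depth), close to the 61.6% of Mki67-negative high-Dcx cells and above the 8.24% of high-Nes cells. In gated LGE cells the share was 0.249%.

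Lhx8, a factor of cholinergic and pallidal neurons, was unevenly spread, and the gated cells were split by it. It had a UMI in 98 cells, with a median depth of 9659 UMIs, and none in 121, with a median of 8634. Cells with Lhx8 had 70.4 CPM of the zinc-finger gene Zic1 against 3.55 CPM, a ratio of 19.8 (7.39 to 74.9). They had less Nr2f1, at 83.0 CPM against 361 CPM, a ratio of 0.230 (0.178 to 0.293), and less Nr2f2, at 10.5 CPM against 90.5 CPM, a ratio of 0.116 (0.0540 to 0.222). Epha5 had a ratio of 0.337, while Lhx6 (1.02, 0.881 to 1.19) and Sox6 (1.07) hardly differed between these cells and the rest and Nkx2-1 had a ratio of 1.16. Of 181 list genes at the level cutoff, 1 was past 2-fold higher in cells with Lhx8 and 4 were past it lower. By cells, 37 held both Lhx8 and Nr2f1, 61 Lhx8 only, 93 Nr2f1 only and 28 neither.

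The same split was then made in the other MGE classes, which was decided after the values above were seen. In the Mki67-negative high-Dcx cells, 659 with and 1154 without Lhx8, the ratios of Zic1, Nr2f1 and Nr2f2 were alike. They were 16.4 for Zic1 (12.8 to 21.4), 0.195 for Nr2f1 (0.178 to 0.213) and 0.152 for Nr2f2. The intervals for Epha5, Asb4 and Sox6 also overlapped those in the gated cells. Those for Nkx2-1, Lhx6, Hes5, Gria2, Maf, Pbx3 and Npy did not. Nkx2-1 had a ratio of 1.86 (1.77 to 1.95), Lhx6 of 1.27 (1.20 to 1.35) and Hes5 of 0.730 (0.563 to 0.940). In the high-Nes cells, where 58 had a UMI of Lhx8 and 493 did not, Zic1 had a ratio of 1.61 (0.817 to 2.93), Nr2f1 of 0.474 (0.374 to 0.593) and Nr2f2 of 0.685 (0.399 to 1.11). Lhx6 had a ratio of 4.49 (3.26 to 6.14) there. The intervals for Zic1, Nr2f1, Nr2f2, Lhx6, Nkx2-1, Hes5, Asb4, Sox6 and Npy in high-Nes cells did not overlap those in the gated cells. Those for Epha5, Pbx3, Gria2 and Maf did. Hes5 had a ratio of 0.421 (0.369 to 0.478) in the high-Nes cells.

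**Figure D5:**
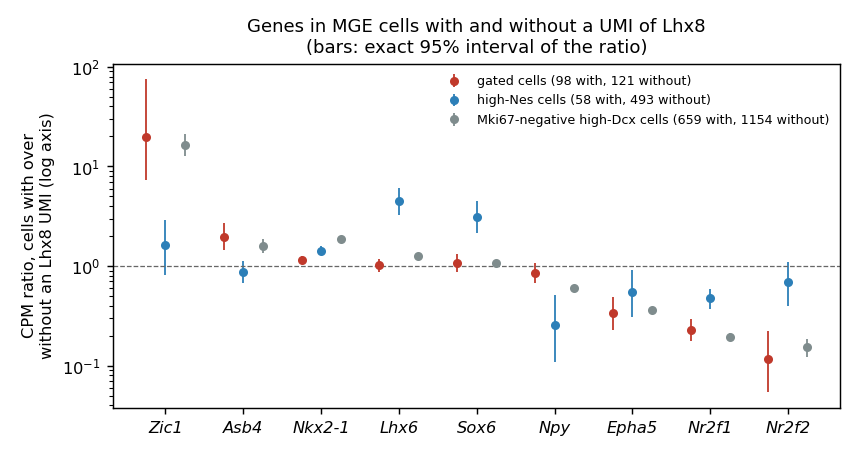
Ratio of summed CPM in MGE cells with a UMI of Lhx8 over those without, on a log axis with exact 95% intervals, for 9 genes in 3 classes. In gated cells and in Mki67-negative high-Dcx cells Zic1 lies above 1, at 19.8 and 16.4, and Nr2f1 and Nr2f2 lie below 1, while in high-Nes cells Zic1 lies at 1.61.

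The split by Nr2f1 gave Lhx8 a ratio close to that of Nr2f1 in the split by Lhx8. Both ratios come from the same gated cells, so the later one largely restates the earlier and adds no support. Other splits gave ratios nearer 1 or rested on few cells. Cells with the splitting gene were deeper, at medians of 9630.5 against 8441 UMIs for Nr2f1 and 10018 against 7994 for Cdkn1c. With Nr2f1, found in 130 cells, Nr2f2 was 5.63-fold higher (3.08 to 11.3), Epha5 2.09-fold and the TALE factor gene Pbx3 1.95-fold, and Lhx8 had 99.9 CPM against 462 CPM, a ratio of 0.216 (0.175 to 0.266). With Cdkn1c, found in 155 cells, the replication genes Pcna (2.10-fold) and Tyms (1.91-fold) were higher, and Hes5 (0.334), Fabp7 (0.526) and Dll1 (0.609) had ratios below 1. Only 19 cells lacked Lhx6, and cells with it had more Plxna4 (9.58-fold) and less of the cell-cycle factor gene E2f1 (0.348) than those without. These cells are of 1 library and are not replicates, and the part of cell-cycle phase in the splits was not tested.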

How the data were processed

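Each of the 4 libraries was deposited by the authors as a matrix of UMI counts per gene and barcode, which Cell Ranger had aligned to GRCm38 (mm10), in version 3.0.2 by the matrix header and 3.0.0 by the submitters' processing notes. The annotation release and the strand setting of the counting were not given in the sources used here. Gene positions came from GENCODE M21 by gene ID (42462 of 43346 features matched). Promoters came from RefSeq.

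The gated cells, the lists and the comparisons were chosen with earlier results of these data known. Counts were summed over the cells of a class and scaled to CPM of that class, and ratios were printed without a pseudocount. Called genes had a log2 ratio (pseudocount 5 CPM) past 1 at 50 CPM or more, and gate genes were left out. Mki67-negative high-Dcx cells had Mki67 below 0.5 and Nes of at most 1.5. Shares carry Clopper-Pearson and CPM and ratios exact Poisson 95% intervals. Shares of cells with a UMI were computed after thinning to 3000 UMIs, leaving out shallower cells. Doublets were scored from simulated pairs and called at 0.8% per 1000 barcodes. They were kept.

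Named genes were, in each comparison, the 8 highest and 8 lowest log2 ratios, up to 4 genes of each of 10 lists with the largest ratios, Nkx2-1, Lmo1 and Mbip, the splitting genes (Nkx2-1, Lhx6, Lhx8, Nr2f1, Cdkn1c and 1 not reported here) and the 3 highest and 3 lowest list genes of each split. Python 3.11.15 with numpy 2.4.6, pandas 2.3.3, scipy 1.17.1, scikit-learn 1.9.0 and matplotlib 3.10.9 was used, and the ratios were tested on simulated counts. The libraries held 4301 to 6953 barcodes and 31451467 to 49794765 UMIs, with 6235 barcodes in MGE.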

Additional observations from a re-analysis of the deposited data

How the results depend on the processing

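The share of gated cells in MGE moved with the gate, to 1.97% (94 cells) after thinning to 3000 UMIs, 9.65% with a Dcx cutoff of 1.0, 0.948% with 2.0 and 3.05% with Mki67 and Ccnd2 above 1.0. Against high-Nes cells, the count of higher genes was 382 with no filter on level, and that of lower genes 540 at 20 CPM and 835 with no filter. Against Mki67-negative high-Dcx cells, higher genes numbered 441 at 20 CPM and 540 with no filter, and lower genes 302, 451 and, with the cells of like Ccnd2, Mapt and Rbfox3, 30. In that last setting the log2 ratio was 0.25 for Ebf1, 0.36 for Gria2 and 0.13 for Sst, of opposite sign, though for Ebf1 (3 UMIs against 1) and Sst (1 UMI against 0) no direction can be read. Against gated LGE cells, higher genes numbered 116 at 20 CPM, 179 with no filter, 132 after thinning and 131 with a Dcx cutoff of 2.0, and lower genes 172 with no filter and 141 with that cutoff. Of 164 named values past 2-fold, 162 were still past it without predicted doublets, 147 after thinning and 144 with a Dcx cutoff of 2.0. Fewer held against the Mki67-negative cells of like Ccnd2, Mapt and Rbfox3, where 38 of 58 stayed past it and 3 changed sign. Against the high-Nes cells with Mki67, 54 of 63 stayed past it. In the split by Lhx8, the ratio was 13.9 to 26.1 for Zic1, 0.207 to 0.267 for Nr2f1 and 0.107 to 0.308 for Nr2f2 over all settings, and after thinning the interval for Nr2f2 (0.0581 to 1.06) included 1. No paired analysis was possible because each region had 1 library, and no library could be left out.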
